A study of Mus musculus with 10 samples.

Results

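The genes described here are 10 components of the Hedgehog signalling pathway: the co-receptors Cdon, Boc and Gas1, the receptor Ptch1, the ligand trap Hhip, the transducer Smo, the Gli inhibitor Sufu and the transcription factors Gli1, Gli2 and Gli3. They were chosen by gene name, and all 10 were found among the 53801 genes of the deposited table. RNA was sequenced in bulk from cells of the dorsal brain of wild-type mouse embryos. Embryos were electroporated in utero at embryonic day 12 with StarTrack, which labels progenitors and their descendants with fluorescent reporters. At embryonic day 14 the tissue was dissociated, and flow cytometry separated an NG2+ and a GFAP+ population. Each population has 5 libraries, called GFAP 1 to 5 and NG2 1 to 5 below, and the labels put all 10 in batch 1 and call the cells neural stem cells. Both groups share the genotype, the electroporation, the tissue and the ages, so the comparison is between 2 sorted populations of electroporated brains and has no untreated control. The labels do not say whether the 5 libraries of a group came from separate embryos or litters, and p-values measure only the spread between these libraries.

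Hedgehog ligands bind Ptch1 together with a co-receptor, and this frees the membrane protein Smo to signal in the primary cilium. Without ligand, Gli3 and, in part, Gli2 are cut into repressors of transcription, with Sufu holding the full-length proteins in check. Gli1, Ptch1 and Hhip are classic target genes of the signal, while Cdon, Boc and Gas1 are typically lowered by it. In the dorsal telencephalon Gli3 is best known as a repressor that keeps ventral programmes off.

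The libraries held between 12945436 and 17569730 counted reads. NG2 5 stood apart: it had reads in 18903 genes against 22988 to 24444 in the others, and its correlation of log2 expression with the other NG2 libraries was 0.9195 to 0.9286, where all other pairs within a group lay between 0.9715 and 0.9861. GFAP 2 stood apart in its cell cycle genes, with a summed level of 14 G1/S genes of 3527 CPM against 1859 to 2005 CPM in the other GFAP libraries. CPM are counts relative to library depth, with depth adjusted by edgeR's TMM factors. Cspg4, which encodes NG2, was higher in NG2 (6.75 ± 1.47 CPM against 1.07 ± 0.356 CPM in GFAP, SD, n = 5 each, edgeR adjusted p = 0.00256), whereas Gfap had only 10 reads over all GFAP libraries and 6 over all NG2 libraries. Radial glia markers were abundant, with Fabp7 at a mean of 414.5 FPKM and Sox2 at 41.1 FPKM, and so were neuronal markers, with Neurod6 at 832.5 FPKM. FPKM are the authors' deposited values, scaled for depth and gene length.

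Because Gli factors bind a GC-rich element, the RefSeq promoter windows of the members (GRCm38.p6, the 250 bases before the annotated start) were searched on both strands for the element TGGGTGGTC and for its inner core GGGTGG, which the longer element contains. A window was matched for 8 of the 10 members. For Cdon, Ptch1 and Gli3 the RefSeq start lies 30948, 7863 and 488 bases inside the deposited gene, so their windows may not be the promoter in use, and the counts below include them. The 9-base element was in 0 of the 8, and in 0.225% of all 32851 windows of this length. The core was in 4 of the 8, namely Gli2, Gli3, Hhip and Smo, and in 28.1% of all windows. Such a match is a description of letters only. The windows of Gli2, the member with 2 matches, and of Hhip, a classic target gene, are printed to show what surrounds the core, which is in capitals (CCACCC is its reverse complement). They lie at chr1:119053620-119053869 on the minus strand, directly upstream of the deposited start of Gli2, and at chr8:80058009-80058258 on the minus strand, just before the deposited start of Hhip.
Gli2: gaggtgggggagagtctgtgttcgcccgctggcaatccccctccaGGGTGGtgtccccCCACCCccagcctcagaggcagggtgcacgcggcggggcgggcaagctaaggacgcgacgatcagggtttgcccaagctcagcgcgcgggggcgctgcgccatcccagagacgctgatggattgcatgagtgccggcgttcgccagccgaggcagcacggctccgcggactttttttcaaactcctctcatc
Hhip: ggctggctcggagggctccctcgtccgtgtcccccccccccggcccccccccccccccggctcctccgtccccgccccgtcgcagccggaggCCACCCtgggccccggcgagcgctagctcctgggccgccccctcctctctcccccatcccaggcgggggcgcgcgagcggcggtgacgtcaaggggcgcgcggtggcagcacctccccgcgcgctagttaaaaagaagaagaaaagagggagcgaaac
Both windows are rich in GC, at 67.2% for Gli2 and 76.0% for Hhip against a median of 52.4% over all windows.

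Cdon was the member past the threshold of the main test, and it was lower in NG2. It encodes an immunoglobulin and fibronectin repeat protein at the cell surface that binds Hedgehog ligand, and the gene lies at chr9:35421128-35507652 on the plus strand. Its level was 75.0, 68.5, 77.6, 79.8 and 74.4 CPM in GFAP 1 to 5. In NG2 1 to 5 it was 53.4, 40.7, 37.5, 50.9 and 46.7 CPM. All 5 NG2 libraries were below all 5 GFAP libraries, with a gap between 53.4 and 68.5 CPM. The mean was 75.1 ± 4.26 CPM in GFAP and 45.8 ± 6.70 CPM in NG2 (SD, n = 5 each), which is 1.64-fold higher in GFAP. The log2 fold change, NG2 minus GFAP, was -0.71 with a standard error of 0.11, and edgeR's quasi-likelihood test gave an adjusted p of 0.0299 over 16187 tested genes. In that test 0.0741% of genes were called lower in NG2, and 1.76% of genes had all NG2 libraries below all GFAP libraries. The call was close to the threshold: it was lost when any of GFAP 1 to 5, NG2 2 or NG2 3 was left out (adjusted p 0.0539 to 0.115, log2 fold change -0.74 to -0.64) and held without NG2 1, NG2 4 or NG2 5. In those 3 fits 0.0547%, 0.0365% and 0.285% of genes were called lower in NG2. It was also lost with limma on log2 FPKM (adjusted p 0.0579 and 0.0585 with pseudocounts of 1 and 0.1), with the replicate number as a block (0.12) and with that block and offsets for GC content and length (0.0954). Of the 23 alternatives run, 12 called Cdon and all 23 gave a negative fold change.

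**Figure D1:**
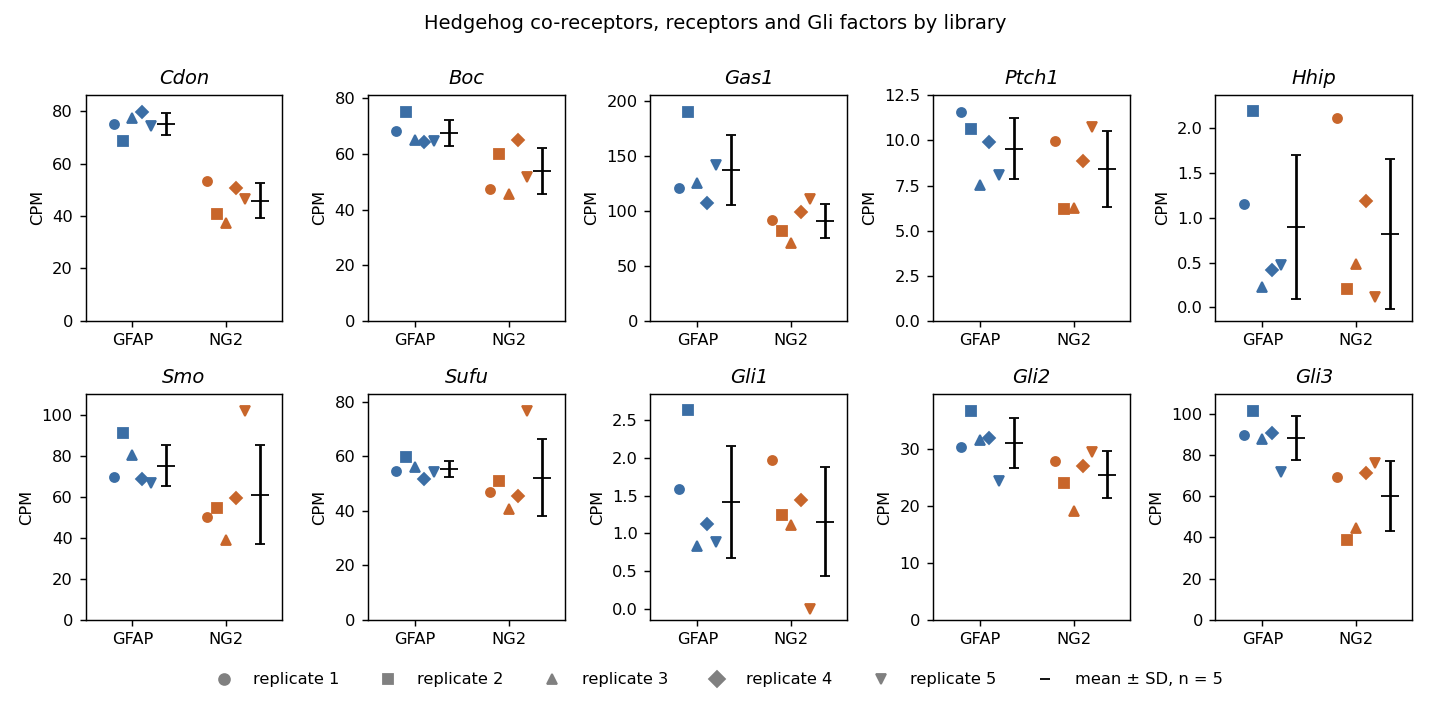
Level of each of the 10 genes in CPM (linear axis) in the 5 GFAP libraries (blue) and the 5 NG2 libraries (orange). Symbols mark replicate numbers, and black bars show the mean ± SD. Only for Cdon do all NG2 points lie below all GFAP points, with GFAP at 68.5 CPM or more and NG2 at 53.4 CPM or less.

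Gas1, a lipid-anchored co-receptor at chr13:60174405-60177365 on the minus strand, had the next largest fold change. It stood at 121, 189.8, 125, 107 and 142 CPM in GFAP 1 to 5. The NG2 libraries had 91.3, 81.3, 70.8, 98.4 and 110.4 CPM. The groups overlapped only through NG2 5, the highest NG2 library, which exceeded GFAP 4, and GFAP 2 was far above the rest. The log2 fold change was -0.60 ± 0.153 (SE), and the adjusted p of edgeR was 0.145. DESeq2 gave an adjusted p of 0.0207 for Gas1, voom with sample weights 0.026, edgeR without an expression filter 0.0486 and edgeR without both GFAP 2 and NG2 5 0.0368. With voom the fold change was smaller, at -0.39. These tests call more genes of all kinds lower in NG2: 0.896%, 5.29%, 0.119% and 0.945% of those tested, in the same order.

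Boc, the relative of Cdon at chr16:44485049-44558897 on the minus strand, varied less. It was at 68.2, 75.2, 65.0, 64.4 and 64.6 CPM in GFAP 1 to 5. It was at 47.6, 60.0, 45.6, 65.1 and 51.6 CPM in NG2 1 to 5. NG2 4 lay above 3 GFAP libraries, so the groups overlapped. The log2 fold change was -0.32 ± 0.112 (SE), with an adjusted p of 0.275. The log2 ratio of Cdon to Boc within a library, a measure chosen after the values were seen, was 0.15 ± 0.173 in GFAP and -0.23 ± 0.27 in NG2 (SD, n = 5). The groups overlapped in this ratio. The difference of -0.39 is given as a description with no p-value, because the pair was chosen from these same values. It ran from -0.49 to -0.31 with a library left out, and it does not show that the 2 genes differ. For Cdon against Gas1 the difference in log2 ratio was -0.14, and for Gas1 against Boc it was -0.25, both also with overlap and as descriptions.

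Ptch1, the receptor, and Hhip, a membrane protein that sequesters ligand, are read here both as components and as target genes. Ptch1 (chr13:63508328-63573598, minus strand) was at 11.6, 10.6, 7.51, 9.94 and 8.10 CPM in GFAP 1 to 5. It was at 9.96, 6.20, 6.26, 8.84 and 10.8 CPM in NG2 1 to 5. The groups overlapped over most of their range, and the log2 fold change was -0.18 ± 0.208 (SE, adjusted p = 0.755). Hhip (chr8:79965851-80058006, minus strand) had 70 reads over the GFAP libraries and 62 over the NG2 libraries, too few to pass edgeR's expression filter. Its level ran from 0.228 to 2.20 CPM in GFAP and from 0.113 to 2.12 CPM in NG2, with the highest values in GFAP 2 and NG2 1. The difference in mean log2 CPM was -0.25, with an exact two-sided permutation p of 0.722.

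Smo, the transducer (chr6:29735503-29761365, plus strand), depended on a library. It was at 69.9, 91.0, 80.3, 68.6 and 66.8 CPM in GFAP 1 to 5. It was at 50.1, 54.6, 38.8, 59.6 and 102 CPM in NG2 1 to 5. NG2 1 to 4 lay below all GFAP libraries and NG2 5 above all of them. The log2 fold change was -0.30 ± 0.202 (SE, adjusted p = 0.569) and moved to -0.56 (adjusted p = 0.063) without NG2 5. Sufu (chr19:46396896-46488804, plus strand) showed the same library at the top: it was between 51.8 and 59.7 CPM in GFAP, between 40.5 and 50.9 CPM in NG2 1 to 4 and at 76.6 CPM in NG2 5. Its log2 fold change was -0.09 ± 0.148 (SE, adjusted p = 0.855), and it was -0.26 (adjusted p = 0.199) without NG2 5 and -0.0011 (adjusted p = 0.998) without NG2 3.

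Among the Gli factors, Gli3 had the largest fold change. Gli3 (chr13:15463235-15730026, plus strand) was at 89.4, 101, 87.7, 90.7 and 71.7 CPM in GFAP 1 to 5. In NG2 1 to 5 it was at 69.4, 38.6, 44.6, 71.1 and 76.0 CPM. NG2 2 and NG2 3 were far below the rest, while NG2 5 exceeded GFAP 5. The log2 fold change was -0.56 ± 0.172 (SE), and the adjusted p was 0.23. Gli2 (chr1:118834132-119053619, minus strand), the main activator among the Gli factors, ran from 24.4 to 36.7 CPM in GFAP and from 19.1 to 29.5 CPM in NG2. Its log2 fold change was -0.28 ± 0.143 (SE, adjusted p = 0.429). Gli1 (chr10:127329882-127341974, minus strand), an activator and target gene, had only 108 reads over the GFAP libraries and 86 over the NG2 libraries. It was at 1.59, 2.64, 0.835, 1.12 and 0.885 CPM in GFAP 1 to 5 and at 1.98, 1.24, 1.11 and 1.44 CPM in NG2 1 to 4. NG2 5 had 0 reads of Gli1, which allows a level of up to 0.169 CPM (3 reads, counting error only). The log2 fold change of -0.30 ± 0.655 (SE, adjusted p = 0.889) turned positive without GFAP 2, without NG2 5, without both, and with sample weights, where it was 0.05, 0.03, 0.37 and 0.18.

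The ratio of Gli3 to Gli2 within a library is also given as a description with no p-value, because the pair was chosen after its values were seen. The FPKM of Gli3 was 1.98 to 2.11 times that of Gli2 in GFAP and 1.15 to 1.89 times in NG2, with no overlap. How many other pairs of genes lack overlap was not examined. The log2 ratio of CPM was 1.51 ± 0.0426 in GFAP and 1.19 ± 0.291 in NG2 (SD, n = 5), a difference of -0.31. NG2 2 carried much of its size: without it the difference was -0.19.

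In all, 9 of the 10 members could be tested, 9 of these 9 had a negative log2 fold change, and their median was -0.30. Over all tested genes 51.5% were negative, and the median was -0.01. The 9 signs were also negative under 3 other scalings of the libraries, but that of Gli1 turned in the 4 alternatives named above. At an unadjusted p under 0.05, Cdon, Gas1, Gli3 and Boc were lower in NG2, where 6.33% of all genes tested were. In the authors' deposited table, Cdon (log2 fold change -0.70, adjusted p = 7.12e-06) and Gas1 (-0.59, adjusted p = 0.0198) were the members under 0.05, in a table where 0.451% of genes were lower in NG2 at that level. Gli3 stood at 0.0733 and Boc at 0.161 in the authors' deposited table. These fold changes equal those of the DESeq2 fit made here (-0.6987 for Cdon and -0.5865 for Gas1), so the deposited table is not a second source. Its share of 0.451% is 129 of 28627 genes, and the DESeq2 share of 0.896% is 128 of 14278 genes. In bulk RNA, fewer cells of a type and less RNA per cell cannot be told apart.

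**Figure D2:**
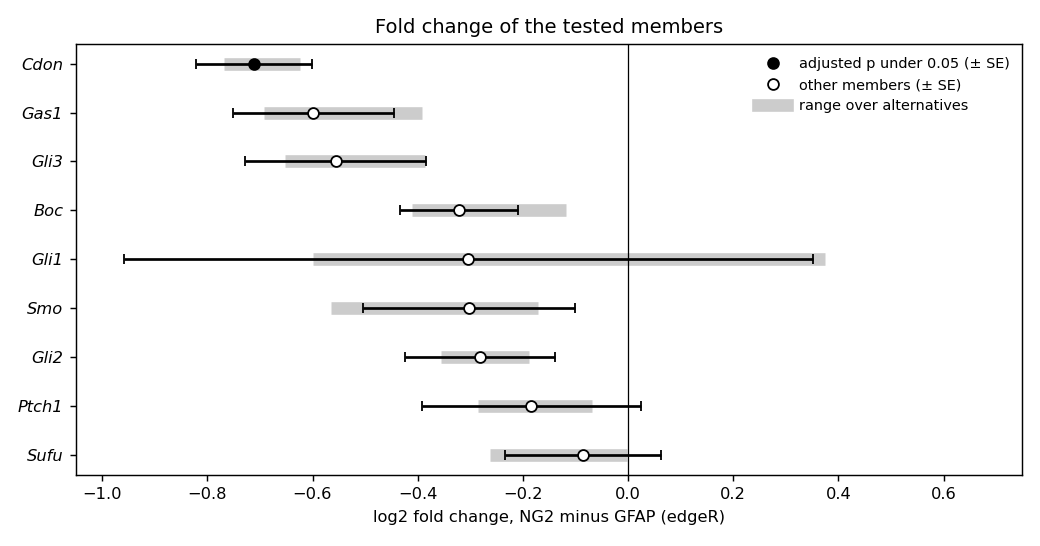
Log2 fold change of the 9 tested members, NG2 minus GFAP, from edgeR, with its standard error. Grey bars give the range over all alternative settings, libraries left out included, and the filled point is the member under an adjusted p of 0.05. Cdon ranges from -0.77 to -0.62 over its alternatives, whereas Gli1 ranges from -0.60 to 0.37.

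Per gene length, the members spanned a wide range of levels. This order rests on the deposited gene lengths and differs in CPM. In GFAP, Gli3 (mean 88.1 CPM) was above Boc (67.5 CPM), and Cdon (75.1 CPM) was nearly level with Smo (75.3 CPM). The same length enters all 10 libraries, so agreement between libraries does not test it. Gas1 was highest at 38.0 ± 11.3 FPKM over the 10 libraries (SD), ahead of Boc at 13.5 ± 2.07 FPKM and Smo at 12 ± 3.33 FPKM. Cdon (7.75 ± 2.06 FPKM), Sufu (7.66 ± 1.38 FPKM) and Gli3 (7.64 ± 2.04 FPKM) formed a middle group, followed by Gli2 at 4.07 ± 0.704 FPKM. The 3 target genes were lowest, with Ptch1 at 0.626 ± 0.131 FPKM, Gli1 at 0.255 ± 0.140 FPKM and Hhip at 0.0938 ± 0.085 FPKM. Neighbours in this order were compared within libraries by exact two-sided sign-flip permutation of the log2 FPKM difference, adjusted over 9 pairs. Gas1 above Boc, Smo above Cdon, Gli3 above Gli2, Gli2 above Ptch1 and Ptch1 above Gli1 held in 10 of 10 libraries (adjusted permutation p = 0.00352 each). Gli1 was above Hhip in 9 of 10 libraries (adjusted permutation p = 0.00586). Boc and Smo (0.133), Cdon and Sufu (0.928) and Sufu and Gli3 (0.859) did not differ beyond their spread. Boc was above Smo in 9 of 10 libraries, and this pair came under 0.05 (adjusted permutation p = 0.00502) when NG2 5 was left out. Cdon ranked 4 among the 10 members in GFAP and 6 in NG2, where Sufu ranked 4. These ranks are a description only, since Cdon, Sufu and Gli3 were not separated by the test. The NG2 mean of Sufu includes 10.9 FPKM in NG2 5.

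**Figure D3:**
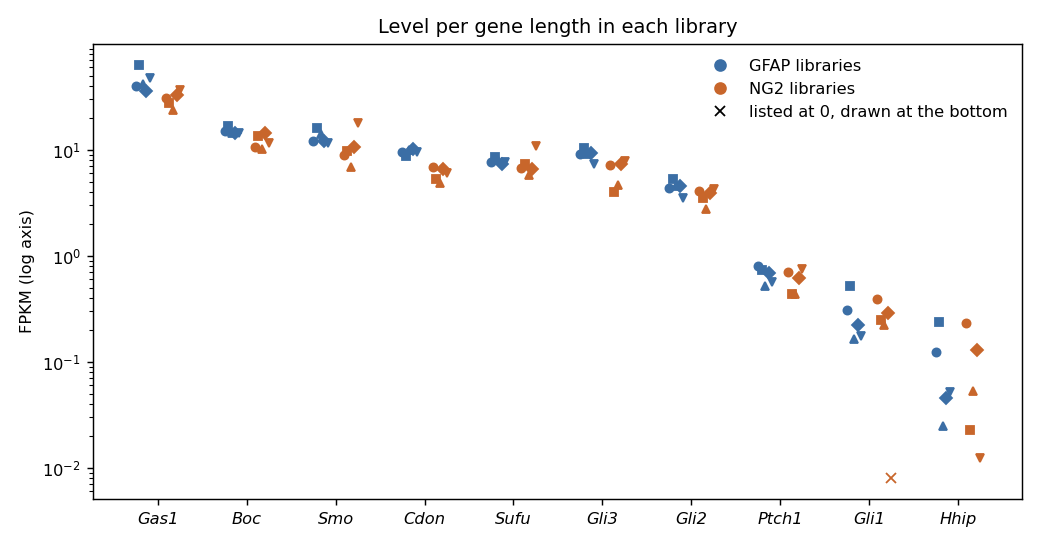
Deposited FPKM of each member in each library on a log axis, ordered by the mean over all 10 libraries, with GFAP libraries in blue and NG2 libraries in orange. Ptch1, Gli1 and Hhip lie below 1 FPKM in every library, and the cross marks the listed 0 of Gli1 in NG2 5.

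Several members shared their highest or lowest library. GFAP 2 had the highest level of all 10 libraries for Gas1, Gli1, Gli2, Gli3, Boc and Hhip, yet the lowest Cdon of its group. NG2 3 was the lowest library for Cdon, Boc, Gas1, Smo, Sufu and Gli2, and NG2 2 for Gli3 and Ptch1. NG2 5 was highest for Smo and Sufu and lowest for Gli1 and Hhip. In log2 CPM relative to the mean of all libraries, Cdon lay between 0.23 and 0.45 in GFAP and between -0.64 and -0.13 in NG2.

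**Figure D4:**
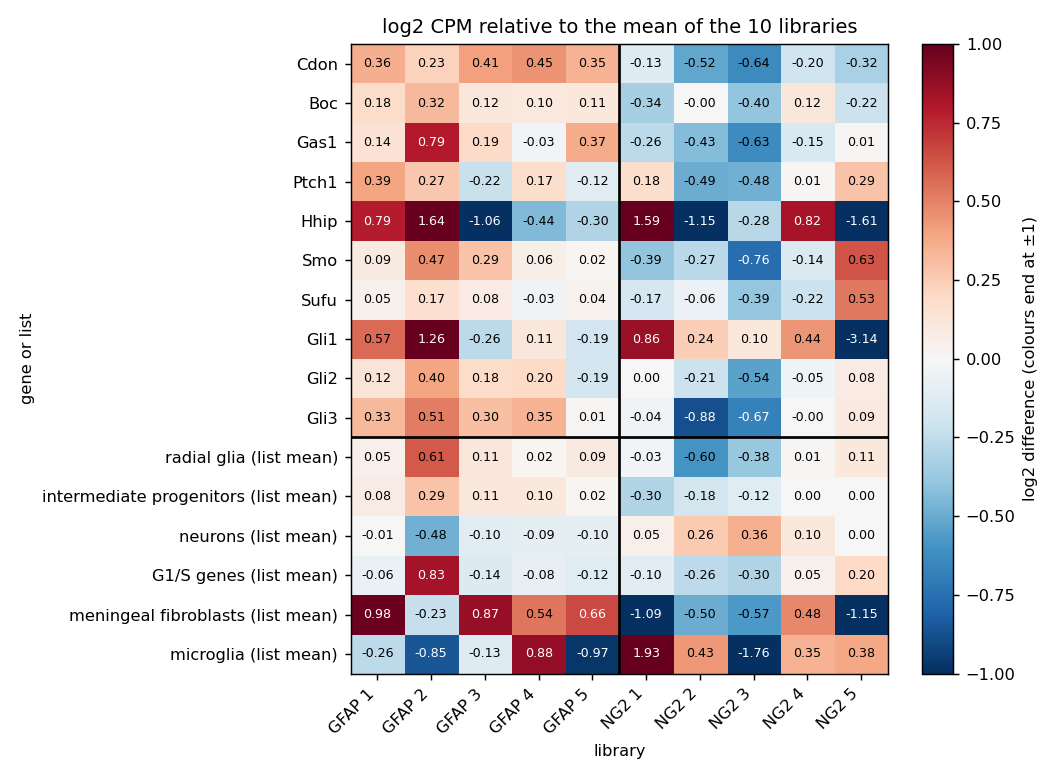
Log2 CPM of each member (rows above the line) and mean over the genes of 6 marker lists (rows below it), relative to the mean of the 10 libraries, with the value printed in each cell. Cdon is positive in the 5 GFAP libraries and negative in the 5 NG2 libraries, while GFAP 2 and NG2 2 hold the extremes of the radial glia list at 0.61 and -0.60.

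The marker lists of radial glia, intermediate progenitors and neurons leaned to one side, with none of their markers past the threshold of edgeR. All 13 radial glia markers had a negative log2 fold change, with 0 called by edgeR, 6 at an unadjusted p under 0.05 and a median of -0.29, and their summed level was 2109 to 2955 CPM in GFAP and 1491 to 2374 CPM in NG2. A few libraries carried this. In log2 CPM relative to the mean of the 10 libraries, the mean of the list was 0.61 in GFAP 2, -0.60 in NG2 2 and -0.38 in NG2 3. In all other libraries of both groups it lay between -0.03 and 0.11. Of 7 intermediate progenitor markers 6 were negative (0 called, 3 at an unadjusted p under 0.05, median -0.23), with sums of 1737 to 2147 CPM in GFAP and 1491 to 1687 CPM in NG2. All 11 neuronal markers found were positive (0 called, 7 at an unadjusted p under 0.05, median 0.31), with sums of 4351 to 5689 CPM and 5444 to 7545 CPM. DESeq2 called 2 of the radial glia markers lower (Pax6, Sox9), 2 of the intermediate progenitor markers lower (Btg2, Eomes) and 3 of the neuronal markers higher (Nefm, Stmn2, Tubb3), and voom with sample weights called 0, 2 and 4. Over all genes tested, DESeq2 called 0.896% lower and 1.39% higher, voom 5.29% and 3.61%, and an unadjusted p under 0.05 in edgeR was reached by 6.33% and 6.45%. All 14 G1/S genes were negative (0 called, 1 at an unadjusted p under 0.05, median -0.19), with sums of 1859 to 3527 CPM in GFAP and 1677 to 2297 CPM in NG2. GFAP 2 carried this difference: the other GFAP libraries summed to 1859 to 2005 CPM. The mean of the list, on the same relative scale, was 0.83 in GFAP 2 and -0.14 to -0.06 in the other GFAP libraries. It was -0.30 to 0.20 in NG2. Of 4 oligodendrocyte precursor markers tested 3 were positive. The 1 called by edgeR was Cspg4, which encodes NG2, the name of the sorted population, so it is no independent marker here. Pdgfra (log2 fold change 0.97) and Lhfpl3 (0.65) were positive and Olig2 (-0.16) was negative, with none of them called. The sums over the 6 markers found, Cspg4 included, were 5.31 to 10.0 CPM in GFAP and 9.46 to 23.8 CPM in NG2. Cspg4 alone had means of 1.07 CPM in GFAP and 6.75 CPM in NG2. The part of all these markers in the results was not tested.

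RNA of other cell types was present in both groups. Of 10 meningeal markers 7 were tested and 7 were negative (0 called, 1 at an unadjusted p under 0.05, median -0.73), and their sum was 11.4 to 24.3 CPM in GFAP and 4.78 to 17.7 CPM in NG2. Of 8 choroid plexus and cortical hem markers 3 were tested, and 3 were negative (0 called, 2 at an unadjusted p under 0.05, median -1.98). They summed to 3.13 to 267.6 CPM in GFAP and 0.507 to 43.7 CPM in NG2, and Ttr, a transport protein of the choroid plexus, reached 202 FPKM in its highest library. Of 10 microglial markers 9 were tested, and 9 were positive (0 called, 0 at an unadjusted p under 0.05, median 0.95). Their sum was 39.96 to 157 CPM in GFAP and 25.1 to 339 CPM in NG2. Among 6 erythroid genes 5 were positive (0 called, median 0.24), with sums of 242 to 444 CPM and 244 to 504 CPM. Of 7 GABAergic markers tested 6 were negative (0 called, median -0.37), with sums of 64.5 to 132 CPM and 40.8 to 129 CPM. Endothelial and pericyte markers summed to 7.15 to 35.4 CPM in GFAP and 1.24 to 34.5 CPM in NG2, with 5 of 7 tested negative (0 called). DESeq2 called 0 in these 6 lists, and voom called Otx2 of the choroid plexus and hem list lower and Hba-a1 of the erythroid list higher. The part of these cells in the differences was not tested.

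The rest of the pathway was read from 6 lists with 68 genes found. Of these, 57 could be tested: 27 were negative, 30 positive and 0 called by edgeR, with a median of 0.01. DESeq2 called 1 of them, Gpc3, lower in NG2, and voom with sample weights called 5 lower and 1 higher, against the shares of all genes given above for these tools. At an unadjusted p under 0.05 in edgeR there were 5, against 2069 of all 16187 genes tested, and they are named here after their values were seen. Gpc3, a glypican that competes for Hedgehog ligand, was at 13.7 ± 3.47 CPM in GFAP and 7.15 ± 1.49 CPM in NG2 without overlap (log2 fold change -0.94 ± 0.211 SE, adjusted p = 0.122). The ciliary transport genes Dync2h1 (log2 fold change -0.46) and Ift80 (-0.45) and the cyclin gene Ccnd2 (-0.42) were negative, and the kinase gene Gsk3a (0.33) was positive.

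Ligand RNA was scarce. Shh had 3 reads over all GFAP libraries and 1 over all NG2 libraries, Dhh 5 and 3, and Ihh 38 and 31, and none passed the expression filter. The genes for release of ligand that ranked highest were Scube1 (5.74 FPKM), Disp1 (1.77 FPKM) and Scube3 (0.632 FPKM), with log2 fold changes of 0.19, -0.14 and 0.22.

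In the list for reception and Smoothened regulation, the highest were the ubiquitin ligase gene Mgrn1 (26.4 FPKM), the arrestin gene Arrb2 (15.3 FPKM) and the kinase gene Grk2 (11.7 FPKM), with log2 fold changes of 0.16, 0.22 and 0.03. Of its 11 tested genes 3 were negative. For Gli processing and stability, 6 of 16 were negative, and Prkar1a (128 FPKM), Cul1 (88.8 FPKM) and Spop (56.9 FPKM), a protein kinase A subunit and ubiquitin ligase components, had log2 fold changes of 0.03, -0.02 and 0.11. For ciliary transport, 8 of 12 were negative, and Kif3a (55.1 FPKM), Ift57 (12.9 FPKM) and Arl13b (5.18 FPKM) had log2 fold changes of 0.14, 0.01 and 0.12.

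Genes reported as downstream of the signal were mixed. Of 11 ventral genes induced by Hedgehog, 6 were tested and 3 were negative, and Nkx2-2 and Nkx6-1 had 0 reads in all libraries. The highest were the homeobox genes Dlx2 (12.6 FPKM), Dlx1 (7.94 FPKM) and Gsx2 (2.48 FPKM), with log2 fold changes of 0.07, -0.12 and 0.41. Markers of GABAergic neurons were present too, and which cells the RNA of these ventral genes came from was not tested. Of 8 further genes reported as Gli targets 5 were negative. The highest of these were Ccnd2 (118.7 FPKM), Mycn (58.5 FPKM) and Rab34 (26.6 FPKM), with log2 fold changes of -0.42, 0.10 and 0.08, none past the threshold.

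Genes whose pattern was most like that of 3 members were ranked by the root mean square difference of log2 CPM, centred on the mean of the 10 libraries, over 10459 protein-coding candidates of at least 5 CPM. For Cdon these were Mpdz (0.0633), Prkdc (0.109) and Dennd1b (0.109), where the median candidate was at 0.454. Mpdz was at 52.6 CPM in GFAP and 33.1 CPM in NG2, a difference that its choice as the closest match implies. For Gli3 they were Nes (0.0997), Sall2 (0.108) and Notch1 (0.12), against a median of 0.49, and Nes and Notch1 are in the radial glia list. For Ptch1 they were Nup210 (0.134), Npas3 (0.148) and Cenpf (0.151), against a median of 0.383. All points come from the same 10 libraries and share their depth and makeup.

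Some members overlap other genes, and no source used here gives the strand setting of the counting. Their reads may therefore be divided uncertainly. Gli1 overlaps Arhgap9 on the other strand, which had a mean of 0.905 CPM, close to the level of Gli1 itself. Around Gli3, Gm6556 had 1.61 CPM and Gm48343 0.905 CPM, and in Cdon the small nuclear RNA gene Gm25630 had 0.867 CPM, all far below the member. No overlapping gene was found for Sufu.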

How the data were processed

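Bulk RNA-seq of 10 libraries was analysed, 5 sorted as GFAP+ and 5 as NG2+. Per the labels' protocols, RNA was amplified with SMARTer chemistry and poly(A) libraries were sequenced as 150-base pairs. The deposited counts are raw reads per gene, made with HISAT2 and featureCounts 1.5.0-p3 on GRCm38.p6, per the submitters' processing notes. The strand setting and the annotation release were not given in the sources used. The authors deposited FPKM, and per the file headers their own group means (a scaled signal), log2 fold changes, p-values and adjusted p-values. No molecular identifiers are mentioned, so counting limits cover counting error only.

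Counts of all 10 libraries were tested with the quasi-likelihood method of edgeR 4.0.16 in R 4.3.3, with TMM scaling, filterByExpr by group and no covariate. P-values were adjusted by Benjamini-Hochberg over 16187 genes, with a threshold of 0.05. Fold changes are NG2 minus GFAP. It was tested on simulated data. Within-library FPKM comparisons used a pseudocount of 0.1. Alternatives used limma 3.58.1 and DESeq2 1.42.0. Named genes are all members, per pathway list those called or else the 3 with the highest FPKM, the ligands, and the 3 genes most like Cdon, Gli3 and Ptch1. Members and lists were chosen with earlier results of these data known. Leaving out GFAP 2 and NG2 5 together, and the 4 ratios, were added after seeing the data. GENCODE M21 gave GC content for 16168 tested genes. A gene that the rule also names is not reported here.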

Additional observations from a re-analysis of the deposited data

Results flagged for a closer look

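Sufu in NG2 5 stood at 76.6 CPM, while NG2 1 to 4 lay between 40.5 and 50.9 CPM. The gap to the next library was 0.713 of the range of the group, above Dixon's 95% critical value of 0.71 for 5 samples. Members were screened in 20 groups of 5 libraries, and chance flags about 1 in 20. NG2 5 was also the library with the fewest genes detected, at 18903.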

How the results depend on the processing

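Cdon was negative in all 23 alternatives (log2 fold change -0.769 to -0.624) and was called in 12 of them. It missed the threshold in limma on log2 FPKM with a pseudocount of 1 (-0.62, adjusted p = 0.0579) or 0.1 (-0.70, adjusted p = 0.0585). Same-numbered libraries did not deviate together (correlations -0.0205 to 0.0828), so the numbers were not taken as pairs. With the replicate block Cdon was at -0.72 (adjusted p = 0.12), and with the block and GC and length offsets at -0.70 (adjusted p = 0.0954). With 1 library left out at a time Cdon ran from -0.77 to -0.64. The 24 genes past the threshold became 95 with no expression filter, 327 with DESeq2, 1441 with voom and sample weights, 12 with FPKM at either pseudocount, 1 with the replicate block, 2 with the block and offsets, 3 to 117 with a library left out and 263 without both GFAP 2 and NG2 5. Called members numbered 2 with no filter, DESeq2, voom or without both libraries, and 0 with FPKM, with the replicate block and with the block and offsets, and 0 to 1 with a library left out. The direction of Gli1 turned with voom (0.18) and without both libraries (0.37), and with 1 library left out it ran from -0.58 to 0.051. That of Hhip ran from -0.68 to 0.13. The log2 FPKM ratio of Cdon over Sufu (-0.01) ran from -0.066 to 0.081 with a library left out and was 0.28 in the GFAP libraries alone. Sufu over Gli3 (0.04) ran from -0.050 to 0.082 and was -0.20 in GFAP alone. In a group alone the smallest possible exact p of the order test is 0.0625. The number of separated pairs remained 6 with a pseudocount of 1. The cause of these changes was not tested. The depth of 86 to 108 reads for Gli1 and 62 to 70 for Hhip per group limits what can be said of them.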
